A study of Mus musculus with 24 samples.

Results

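The brain-derived melanoma line B16F1-GFP-DB#2 was compared with its sister lines B16F1-GFP-DB#1 and B16F1-GFP-DB#3, called DB#2, DB#1 and DB#3 here. The arrays were assigned by their line labels: the 3 arrays of DB#2 were set against the mean of the 4 arrays of DB#1 and the 3 arrays of DB#3, each line with the same weight. These are 10 of the 24 arrays of the series, and the other 14 entered the fit through its estimate of spread, including 7 arrays of the myeloid lines M0 and J365. B16F1 is a melanoma line of mouse skin origin, and all of these lines carry green fluorescent protein (GFP). In the study, the parental line B16F1-GFP-M (M, 3 arrays) was kept in check in syngeneic mice by a vaccine-type immunotherapy, the dormant line B16F1-GFP-D (D, 4 arrays) was recovered from such mice after long dormancy, and the DB lines are a later generation recovered from a brain site. All were expanded in culture before RNA was taken, and the labels give no drug treatment for them. Each DB line is 1 recovered line, so its arrays repeat that line and do not sample other recoveries, and p-values measure only the spread between arrays, which may be technical. The question addressed is how far lines of 1 origin and 1 site differ from one another.

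A probe counts as read where the scanner software marked its spot as well above background, and 48.7% to 53.8% of probes were read on the 10 arrays of the DB lines. D replicate 3 stood apart with 89.9%, and values that rest on D are therefore given with and without it. Melanocyte markers (Mitf, Sox10, Tyr, Tyrp1, Dct, Pmel, Mlana and Slc45a2) were read on every DB array, and 0 of the 8 were called between DB#2 and the other DB lines. Of the neuron markers and of the endothelium markers, 1 of 8 was read on each DB array. Blood markers had a mean normalized log2 signal of -4.18 to -3.84 on the DB#2 arrays, -4.22 to -3.73 on those of DB#1 and -4.21 to -4.05 on those of DB#3, and 0 of the 5 that could be tested were called. Of 4 tested markers each of microglia and of oligodendrocytes 0 were called, and of 4 of astrocytes 1 was lower, Slc4a4, a bicarbonate transporter, at -1.15 (SE 0.15, adjusted p = 2.52e-05). In bulk RNA such as this, fewer cells of a type and less RNA per cell cannot be told apart.

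Melanoma cells can move between pigmented and poorly pigmented states, and lines grown from 1 tumour often differ in such states and in their chromosomes. Cells also carry an interferon programme. Secreted interferons bind surface receptors, receptor kinases activate STAT proteins, these join IRF9 on interferon-response elements in promoters, and the genes switched on there encode RNA sensors, antiviral enzymes and their own feedback regulators. The programme is known in tumours both for antiviral defence and for shaping recognition by immune cells.

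DB#2 differed from the other DB lines in 1519 of 21263 genes tested (7.14%), whereas DB#1 and DB#3 differed from each other in 45 (0.212%). The comparison was chosen with earlier results of these data known, so these counts are not an independent test that DB#2 is the divergent line. Of the 1519, 790 were higher in DB#2 (3.72%) and 729 were lower (3.43%), by limma with Benjamini-Hochberg adjustment at an adjusted p under 0.05. At least 2-fold differences made up 646 of the calls (3.04%), 382 higher and 264 lower. Set against each sister line alone, DB#2 differed in 1149 genes from DB#1 (5.4%) and in 932 from DB#3 (4.38%). The 3 DB#2 arrays did not overlap the other 7 in 1420 of the called genes, as in 17.5% of all genes tested. The standard deviation over genes of the log2 difference was 0.50 for DB#2 against the mean of the others and 0.27 for DB#1 against DB#3.

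**Figure D1:**
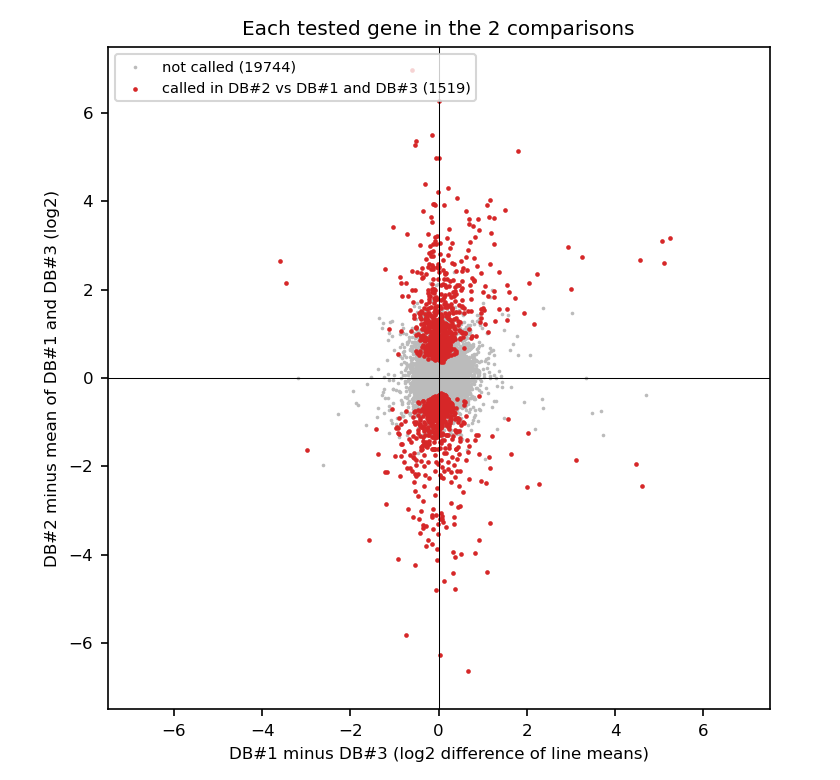
Each point is 1 of the 21263 tested genes, with the log2 difference of DB#1 minus DB#3 on the x axis and that of DB#2 minus the mean of DB#1 and DB#3 on the y axis. The 1519 genes called for DB#2 (red) reach about as far up as down, and the cloud is taller than it is wide (standard deviation 0.50 against 0.27).

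Every slide held all 3 lines. On slides 1, 2 and 3 taken singly, 1519, 1518 and 1519 of the 1519 genes had the sign of the joint difference. The genes were called from these same arrays, so such agreement is largely set by their choice and is no separate test. With slide as a block in the fit 2526 genes were called. The count fell to 994, 843 and 871 genes without DB#2 replicate 1, 2 and 3. With no scaling between arrays the calls were 1968 higher and 303 lower, and the median difference of all genes moved from -0.02 to 0.20.

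The levels of M and D were not part of the difference, although their arrays entered the estimate of spread. For each called gene, the mean of D was nearer to the mean of DB#1 and DB#3 than to DB#2 in 1398 of 1519 genes (92%; 1407 without D replicate 3). The mean of M was nearer to DB#1 and DB#3 in 817 of them (53.8%). In 784 genes D and M both lay nearer to DB#1 and DB#3, and in 614 D lay with those lines while M lay nearer to DB#2. Both lay nearer to DB#2 in 88 genes. These counts describe positions of means and were not tested.

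Among genes read on all 10 arrays, the largest falls in DB#2 were those of Tubb2b, Fkbp10, H2-DMb1, Lrrc4b, Lmo1, Pafah1b3, Lamb1, Galnt10, Chn2, Ddah2, Megf10 and 1810065E05Rik, and the largest rises reported here those of Irgm2, Rtp4, Lsp1, Ddit4l, Abcc2, Xaf1, Mgll, Gm8032, Ddx58, Gm10768 and Pak3. The falls ran from -4.80 to -3.14 and the rises from 2.86 to 3.45 on the log2 scale.

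**Figure D2:**
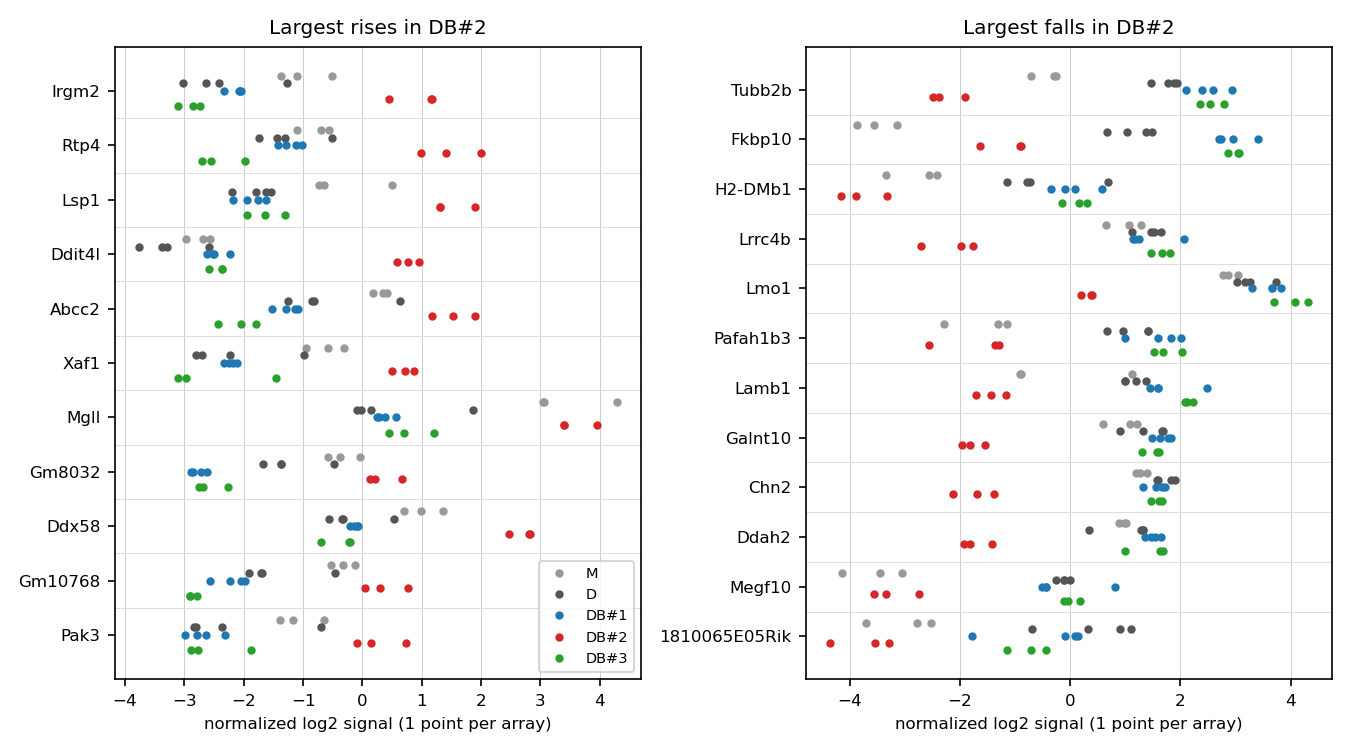
Normalized log2 signal (x axis) of 11 large rises and the 12 largest falls in DB#2, with 1 point per array of the 5 melanoma lines. The DB#2 points (red) stand apart from those of DB#1 and DB#3 in each of the 23 genes, as the choice of these genes required. M (light grey) lies with DB#2 in some, such as Mgll, and with the other lines in others, such as Lmo1.

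Tubb2b encodes a beta-tubulin that is most abundant in neurons. Its normalized log2 signal was -2.50, -2.38 and -1.91 on the DB#2 arrays, 2.10 to 2.94 on those of DB#1 and 2.36 to 2.80 on those of DB#3. All DB#2 arrays were below all others, and the difference was -4.80 (SE 0.18, adjusted p = 5.12e-13), a 27.8-fold lower signal. M lay between the 2 sides, at -0.71 to -0.26. Fkbp10, a chaperone and prolyl isomerase for collagen in the endoplasmic reticulum, read -0.89, -0.92 and -1.64 in DB#2 against 2.70 to 3.41 in DB#1 and 2.87 to 3.07 in DB#3. The difference was -4.12 (SE 0.30, adjusted p = 7.55e-09), and yet DB#2 was above M, where the arrays read -3.87 to -3.15. Rcn3, a calcium-binding protein of the same compartment, was lower by 2.05 (SE 0.33, adjusted p = 0.000368). These were the 2 called genes of 22 tested in the list for collagen modification, with 0 higher and a median of -0.15 beside -0.02 over all genes.

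Lmo1, a transcriptional co-regulator with LIM domains, read 0.37, 0.19 and 0.39 in DB#2 and 3.31 to 4.32 on the 7 other DB arrays. The difference was -3.50 (SE 0.17, adjusted p = 2.52e-11). M (2.78 to 3.05) and D (3.03 to 3.73) read close to DB#1 and DB#3, so that DB#2 was the low line of the 5. The same order held for Chn2, a Rac GTPase-activating protein, whose level was -2.13 to -1.38 in DB#2 and 1.20 to 1.91 on the 14 other melanoma arrays. Galnt10, an enzyme that starts mucin-type glycosylation, was lower by 3.37 (SE 0.19, adjusted p = 3.02e-10), and Ddah2, which breaks down methylated arginine, by 3.19 (SE 0.21, adjusted p = 1.67e-09).

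Mgll, the lipase that splits monoacylglycerols, read 3.95, 3.40 and 3.40 in DB#2, 0.24 to 0.57 in DB#1 and 0.45 to 1.20 in DB#3. The difference was 3.01 (SE 0.33, adjusted p = 3.00e-06), and M (3.04 to 4.29) read in the range of DB#2. Abcc2, an export pump for conjugated compounds, was higher by 3.20 (SE 0.29, adjusted p = 2.24e-07). Lsp1, an actin-binding protein of leukocytes, was higher by 3.25 with its brightest probe, and its 3 probes ranged from 2.04 to 4.08. Ldhd, the mitochondrial D-lactate dehydrogenase, was higher by 1.47 (SE 0.19, adjusted p = 2.65e-05), and Adssl1, an enzyme of the purine nucleotide cycle, was lower by 2.20 (SE 0.38, adjusted p = 0.000606).

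Some genes could be read on only 1 side. Of the 21263 genes tested, 48 with a gene symbol were read on all 3 DB#2 arrays and, with any probe, on none of the other 7. They entered the test through DB#2 alone, and 33 of the 48 were called. Their bounds went down to 1.04-fold (Olfr531, not called). Those with large bounds included Hspb8 (at least 31.3-fold higher), Rps6ka6 (at least 18.8-fold higher), Gm33663 (at least 10.4-fold higher) and Dcn (at least 8-fold higher). Such a bound sets the mean of the bright side against the lowest readable signal of the dim arrays. Hspb8, a small heat shock protein, read 0.82, 0.71 and 0.42 in DB#2, and in M it read -1.22 to -0.95. Rps6ka6, a ribosomal S6 kinase, read -0.16, 0.15 and -0.23 in DB#2 and -6.47 to -5.47 in M.

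In the other direction, 34 genes were read on all 7 arrays of DB#1 and DB#3 and on no DB#2 array, and 33 of them were called. The largest bounds were those of Qpct (at least 29.2-fold lower in DB#2), Nsg1 (at least 12-fold lower), Col4a1 (at least 10.8-fold lower), Aspg (at least 10.8-fold lower) and Zfp521 (at least 7.99-fold lower). Qpct, which forms pyroglutamate at the ends of peptides, read 0.37 to 0.56 in DB#1, 0.27 to 0.57 in DB#3 and -1.88 to -1.12 in M. Col4a1, a chain of basement membrane collagen, read -1.21 to -0.33 in DB#1 and -1.36 to -0.90 in DB#3. Its probe was at -5.99 to -5.86 in M, a level near that of DB#2 (-5.20 to -4.60).

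The interferon-stimulated genes were the group with the largest share of calls in 1 direction among the lists with at least 10 tested genes. Of 52 genes listed, 45 were tested, 31 were higher in DB#2 and 0 were lower. That is 68.9% beside 3.72% of all genes called higher. Their median difference was 1.31 beside -0.02 over all genes, and 0 of the 45 were called between DB#1 and DB#3 (5 at an unadjusted p under 0.05). The DB#2 arrays did not overlap the other 7 in the 31, nor in 1420 of all 1519 called genes, and 26 of the 31 differed at least 2-fold and 10 at least 4-fold. Their count stayed between 26 and 33 under every alternative, among them no scaling (33), slide as a block (31) and the omission of any 1 DB array (27 to 31).

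**Figure D3:**
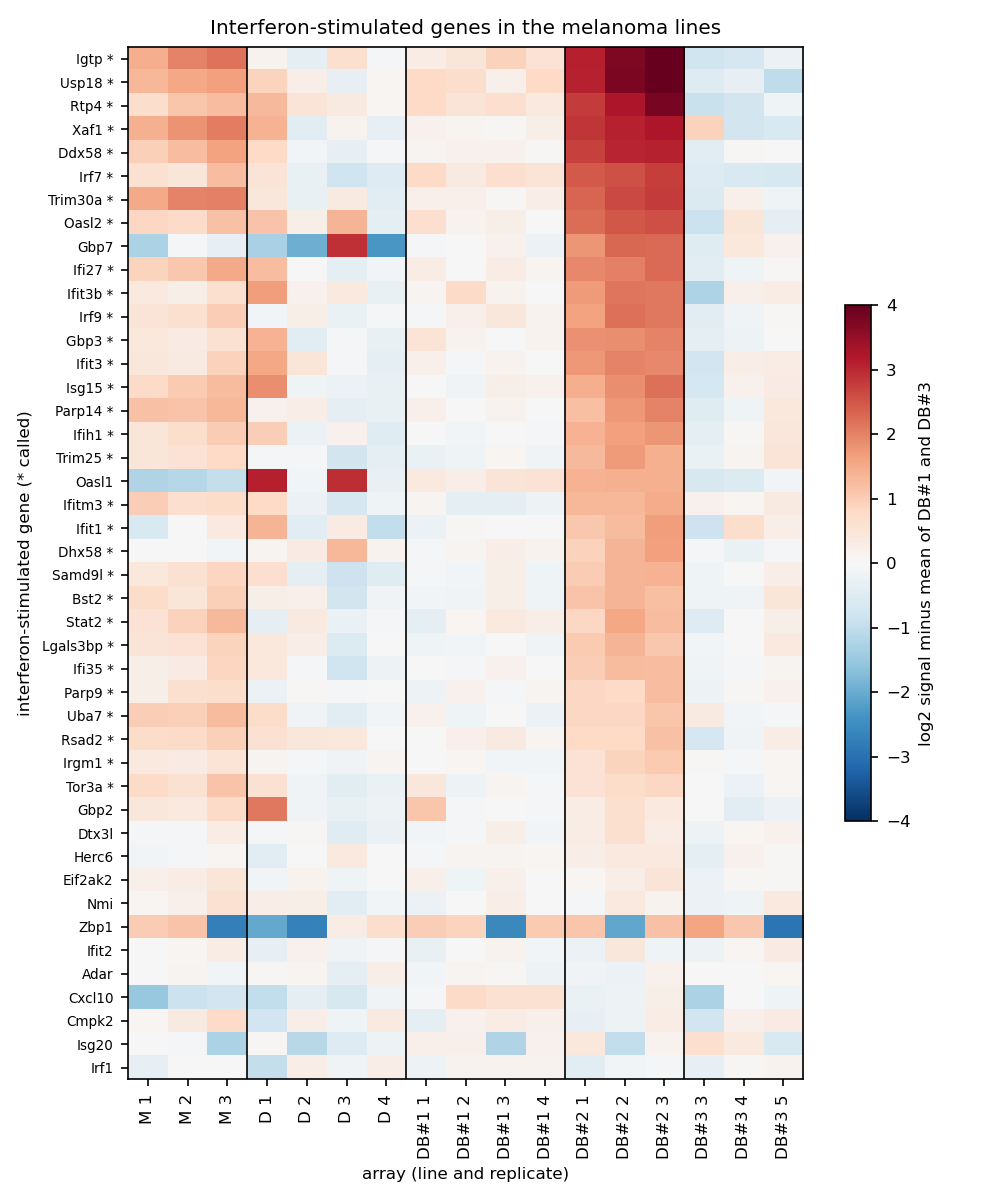
Log2 signal of 44 of the 45 tested interferon-stimulated genes (rows, ordered by difference; a star marks the 30 called among them) on each array of the 5 melanoma lines (columns), less the mean of DB#1 and DB#3. The 3 DB#2 columns are red for the starred genes, the 3 M columns are paler, and the D columns vary from replicate to replicate.

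Over the 45 genes, the mean normalized log2 signal was 0.85 to 1.22 on the DB#2 arrays, -0.23 to -0.21 on those of DB#1 and -0.65 to -0.34 on those of DB#3. It was 0.07 to 0.36 in M and -0.53 to 0.10 in D, so that the 3 DB#2 arrays were the highest of the 17. D lay nearer to DB#1 and DB#3 for 31 of the 31 called genes, with or without D replicate 3. M lay between DB#2 and the other DB lines for 27 of them, and the lowest DB#2 array was above the highest M array for 26.

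RNA sensors were among the genes that were higher. Ddx58, which encodes the sensor RIG-I, read 2.47, 2.80 and 2.82 in DB#2, -0.22 to -0.08 in DB#1 and -0.70 to -0.20 in DB#3. The difference was 2.95 (SE 0.20, adjusted p = 3.73e-09), a 7.74-fold higher signal, and its 4 probes ranged from 2.86 to 3.11. Ifih1, the related sensor MDA5, was higher by 1.60 (SE 0.28, adjusted p = 0.00084), and Dhx58, the third member of that family, by 1.31 (SE 0.21, adjusted p = 0.000271). Of 15 tested genes in a wider sensing list, chosen after the values were seen, 7 were higher and 1 was lower. The kinases Tbk1 and Ikbke were higher by 0.59 (SE 0.15, adjusted p = 0.0188) and 0.73 (SE 0.15, adjusted p = 0.0045). The lower gene was Cgas, the DNA sensor, at -0.64 (SE 0.16, adjusted p = 0.0174).

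The ligands were dim: of 18 interferon genes on the array, 7 were tested, with 0 called in either direction and a median of 0.03, and Ifnb1 and Ifng were read on 0 of the 10 arrays. Members of the interferon alpha family are near-identical, so their probes cannot be assigned to single genes with certainty. Of 10 receptors, kinases and Socs1, 1 was higher (Ifngr1, a gene of chromosome 10, 0.58, SE 0.15, adjusted p = 0.0187), and the list median was 0.23. The differences of Ifnar1 and Ifnar2 were 0.14 (SE 0.44) and -0.06 (SE 0.18), and that of Ifnlr1 was 0.69 (SE 0.22, adjusted p = 0.0593). These lists too were chosen after the values were seen. The factors downstream were higher: Stat2 by 1.21 (SE 0.21, adjusted p = 0.000595), Irf9 by 1.97 (SE 0.16, adjusted p = 5.12e-08) and Irf7 by 2.59 (SE 0.22, adjusted p = 8.41e-08). Irf1, a factor that also answers to interferon gamma, differed by -0.20 (SE 0.21, adjusted p = 0.77).

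Effector genes were higher in several families. Usp18, the protease that removes Isg15 and damps receptor signalling, read -0.16, 0.54 and 0.82 in DB#2, -3.02 to -2.42 in DB#1 and -4.25 to -3.56 in DB#3, a difference of 3.63 (SE 0.24, adjusted p = 1.69e-09). Usp18 was not read on every DB array, and over the main fit and its alternatives its difference ran from 2.36 to 3.91. Isg15, the ubiquitin-like modifier, was higher by 1.84 (SE 0.34, adjusted p = 0.00133), and Bst2, which tethers virus particles, by 1.23 (SE 0.27, adjusted p = 0.00594). Irgm2, an immunity-related GTPase, read 0.44, 1.18 and 1.16 in DB#2 and -3.11 to -2.05 on the other DB arrays. Igtp, of the same family, was higher than in DB#1 by 3.07 (SE 0.26, adjusted p = 8.67e-08), and it was read on no array of DB#3. Rtp4, a receptor transporter, was higher by 3.28 (SE 0.24, adjusted p = 7.23e-09) and Xaf1, a pro-apoptotic protein, by 3.06 (SE 0.34, adjusted p = 3.62e-06).

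The oligoadenylate synthetases make the second messenger that switches on an RNA-cutting enzyme. Of 8 tested, 6 were higher and 0 lower, with a median of 2.42. Oas1a read 3.96, 4.19 and 4.43 in DB#2, 1.56 to 2.00 in DB#1 and 1.20 to 1.37 in DB#3, a difference of 2.64 (SE 0.25, adjusted p = 4.34e-07). Oas1c, Oas1f, Oas1g, Oas2 and Oasl2 were higher by 2.41 to 2.49, though Oas2 was read on 7 of the 10 arrays and Oasl2 on 4. Oas1g too was not read on all 10. Over the main fit and its alternatives, the difference ran from 1.08 to 2.70 for Oas1g and from 0.73 to 2.64 for Oasl2. The Oas1 genes are close copies of each other, so a probe may read more than 1 of them.

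The 14 genes that were not called differed widely. They included Gbp7 (2.11, SE 0.71, adjusted p = 0.0843) and Oasl1 (1.42, SE 0.55, adjusted p = 0.149), and also Ifit2 (0.02, SE 0.19), Cmpk2 (-0.08, SE 0.26) and Cxcl10, a chemokine that attracts T cells (-0.07). Class I antigen presentation stood beside them: of 22 tested genes, 0 were higher and 1 was lower, with a median of -0.05. B2m, the light chain of class I molecules, differed by 0.28 (SE 0.20, adjusted p = 0.558), H2-K1 by -0.64 (adjusted p = 0.126) and Tap1, a peptide transporter, by 0.61 (adjusted p = 0.191). Classical and related H2 genes are close copies. The 14 that lie on chromosome 17 had a median of -0.04, with 7 above 0. The gene that was called, Erap1 (-0.55, SE 0.16, adjusted p = 0.0374), lost its call in 15 of 23 alternatives. Cd274, which encodes the checkpoint ligand PD-L1, was higher by 0.95 (SE 0.19, adjusted p = 0.00228), a call that was lost with quantile normalization (adjusted p = 0.236).

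Promoters were read for the motif GAAANNGAAA, the core of the interferon-response element, on both strands (TTTCNNTTTC on the other) in RefSeq windows of assembly GRCm38.p6 that run from 250 bases before to 50 bases after a gene's start. Of the 31 interferon-stimulated genes higher in DB#2, 23 had a window and 14 of these held the motif (60.9%). It was held by 4 of 13 listed genes that were not called and by 3.59% of all tested genes with a window, and by 3.44% of all windows. A match is a run of letters and not a shown binding site. The stretches around it are printed for a GTPase of each family, the RNA-binding effector Ifit1, the modifier Isg15, the tether Bst2 and the factor Stat2, on the strand of the gene, with the matches in capitals.
Igtp, chr11:58199492-58199561, plus strand: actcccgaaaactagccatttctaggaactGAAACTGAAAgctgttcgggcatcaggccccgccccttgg
Gbp3, chr3:142559969-142560038, plus strand: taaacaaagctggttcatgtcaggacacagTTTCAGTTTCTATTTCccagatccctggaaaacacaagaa
Isg15, chr4:156200857-156200926, minus strand: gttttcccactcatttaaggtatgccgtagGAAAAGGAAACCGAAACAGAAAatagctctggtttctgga
Bst2, chr8:71537563-71537632, minus strand: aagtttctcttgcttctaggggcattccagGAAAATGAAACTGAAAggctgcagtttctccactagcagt
Stat2, chr10:128270248-128270315, plus strand: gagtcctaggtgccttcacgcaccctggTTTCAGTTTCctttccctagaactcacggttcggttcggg
Ifit1, chr19:34640755-34640824, plus strand: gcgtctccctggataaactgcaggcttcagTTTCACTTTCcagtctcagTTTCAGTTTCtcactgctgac
In Isg15, Bst2 and Gbp3 matches overlapped, and Ifit1 held a pair of separate matches. Among the genes with large differences, Igtp held a match, while Irf7, Irf9 and Xaf1 held none in their windows and Usp18 had no window.

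The medians of the other pathway lists lay between -0.15 and 0.26, and their shares of called genes are to be read beside 7.14% of all genes. Pigment genes were higher in 4 of 27 (median 0.24) and lower in 0. Gpr143, a melanosome receptor, was higher by 0.76 (SE 0.20, adjusted p = 0.0203), and its call was lost without DB#2 replicate 1 or 2. Trpm1, a melanocyte channel, was higher by 2.25 (SE 0.54, adjusted p = 0.0116) with its brightest probe, its 6 probes ranged from 0.04 to 2.25, and the call was lost without DB#2 replicate 1 (adjusted p = 0.123). Among state regulators, 2 of 34 were higher and 3 lower. Snai2, a factor of the neural crest, was higher by 0.89 (SE 0.17, adjusted p = 0.00155), and Lef1, a Wnt-pathway factor, was lower by 1.62 (SE 0.36, adjusted p = 0.00705). Lef1 was not read on every DB array, and over the main fit and its alternatives its difference ran from -1.70 to -0.67.

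Matrix genes were called in both directions, 9 higher and 6 lower of 52 (28.8%), with a median of 0.08. Besides Col4a1, the laminin chains Lamb1 and Lama5 were lower. Lamb1 read -1.16, -1.44 and -1.71 in DB#2 and 1.45 to 2.48 on the other DB arrays, a difference of -3.40 (SE 0.31, adjusted p = 2.27e-07), and its 3 probes ranged from -3.40 to -1.74. Lama5 was lower by 2.04 (SE 0.23, adjusted p = 4.16e-06), and Thbs1, a secreted adhesion protein, by 1.59 (SE 0.35, adjusted p = 0.00681), a call lost without DB#2 replicate 3 (adjusted p = 0.052). On the high side, Dcn, a small proteoglycan of fibroblast matrix, read -0.19, -1.36 and -2.39 in DB#2 and -6.14 to -4.31 on the other DB arrays, where it was not read. Sparcl1 was higher by 1.22 (SE 0.15, adjusted p = 1.55e-05). Of 9 fibroblast and pericyte markers, 4 were tested, with a median of 1.5, and 2 were higher (Dcn and Col1a2), while Col1a1 differed by 1.44 (SE 0.55, adjusted p = 0.142) and Pdgfrb by -0.51 (SE 0.23, adjusted p = 0.239), and the other 5 were not read throughout any DB line. The mean signal of the 9 was -4.47 to -4.26 on the DB#2 arrays, -4.88 to -4.29 on those of DB#1 and -5.08 to -4.81 on those of DB#3, and its part in the result was not tested.

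**Figure D4:**
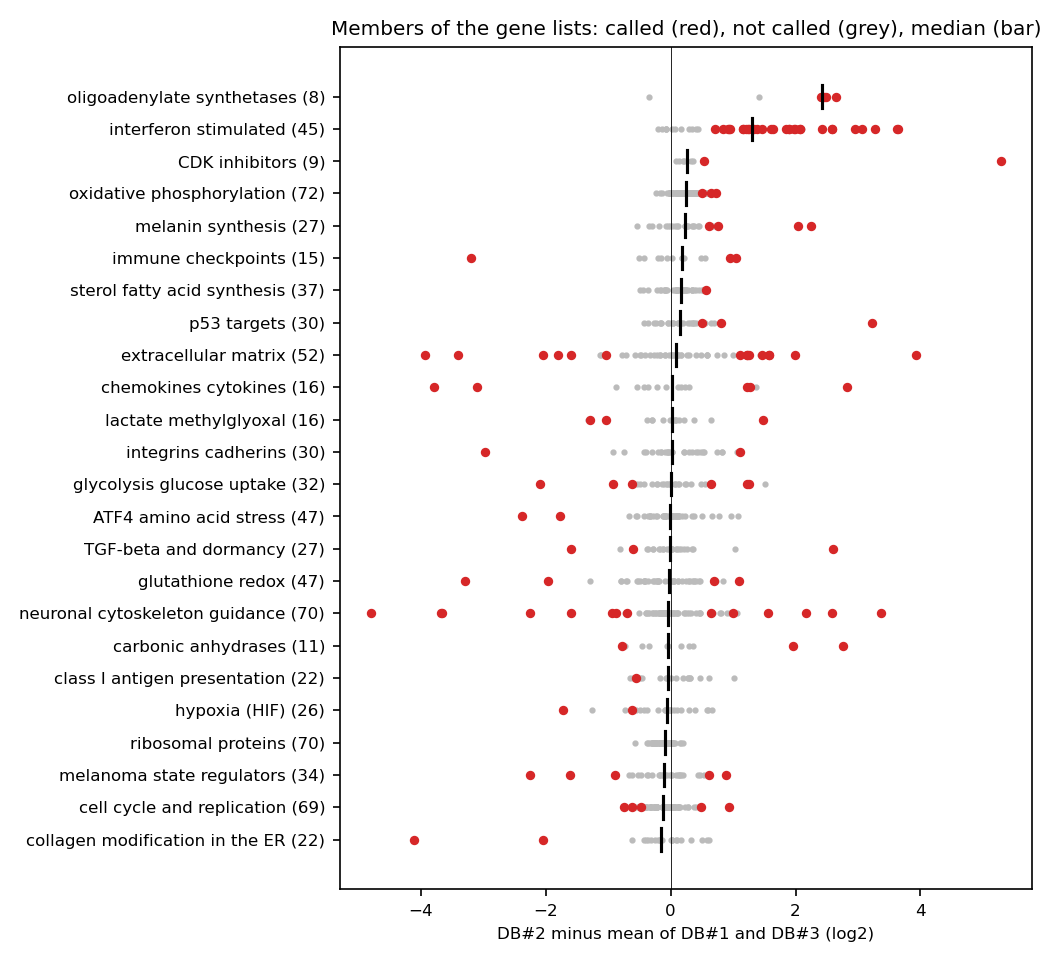
Log2 difference of DB#2 minus the mean of DB#1 and DB#3 (x axis) for each tested member of 24 gene lists (rows, with the number tested), red where called and grey where not, with a bar at the list's median. The interferon lists lie to the right as groups (medians 2.42 and 1.31), while the other medians lie between -0.15 and 0.26 with single genes far to either side.

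Genes of neurites and axon guidance were also split, with 6 higher and 8 lower of 70 (20%) and a median of -0.04. Lrrc4b, a synaptic adhesion protein, read -2.70, -1.77 and -1.98 in DB#2 and 1.14 to 2.06 on the other DB arrays (difference -3.68, SE 0.24, adjusted p = 1.35e-09). Crmp1, which relays semaphorin signals, was lower by 1.60 (SE 0.16, adjusted p = 5.65e-07), and Gap43, a growth cone protein, was read on the 3 DB#2 arrays and on none of the other 7, with a signal at least 2.9-fold higher (adjusted p = 8.14e-06). Plxnc1, a semaphorin receptor, was higher by 1.57 (SE 0.13, adjusted p = 8.01e-08).

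Cytokine genes held 3 higher and 2 lower of 16 tested (31.2%). Il18, a cytokine of innate immunity, read 2.36, 2.38 and 2.26 in DB#2, -0.77 to 0.14 in DB#1 and -0.64 to -0.42 in DB#3, a difference of 2.82 (SE 0.24, adjusted p = 7.51e-08). Cx3cl1, a membrane-bound chemokine, was read on the 7 other arrays and on no DB#2 array, with a signal at least 6.34-fold lower in DB#2 (adjusted p = 3.22e-09). Ctf1, a cytokine of the gp130 family, was lower by 3.1 (SE 0.15, adjusted p = 1.84e-11), with M far lower still (-6.46 to -6.32).

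Cdkn1c was the CDK inhibitor with the largest difference of the 9 tested. It encodes the CDK inhibitor p57, read 0.60, 1.15 and 0.87 in DB#2, -5.57 to -4.23 in DB#1 and -4.33 to -3.99 in DB#3, and differed by 5.28 (SE 0.44, adjusted p = 4.81e-08). It was read on 1 array of DB#1 and 2 of DB#3. M read -2.45 to -2.17, between the 2 sides. The other inhibitor called, Cdkn2c, differed by 0.54 and lost its call without any 1 of the DB#2 arrays. Cell cycle and replication genes were called in 5 of 69 (2 higher, 3 lower, median -0.13), and the 3 lower ones (Chek1, Kif23 and Ttk) lay on chromosome 9. Glycolysis genes gave 3 higher and 3 lower of 32, with the lactate exporter Slc16a3 lower by 2.10 (SE 0.31, adjusted p = 0.000139). Ldhb, a lactate dehydrogenase subunit, was higher by 1.22 (SE 0.17, adjusted p = 5.55e-05). Subunits of oxidative phosphorylation had a median of 0.24 with 62 of 72 above 0, beside 10141 of all 21263 genes, and 3 were called (4.17%), all higher. Ribosomal protein genes had 0 calls of 70 and a median of -0.09.

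Carbonic anhydrases had 2 higher and 1 lower of 11 (27.3%), among them Car2, which read 0.31, 0.00 and -0.10 in DB#2 and -2.88 to -2.57 on the other DB arrays. ATF4 amino acid stress genes had 0 higher and 2 lower of 47, hypoxia genes 0 higher and 2 lower of 26, p53 targets 3 higher and 0 lower of 30, glutathione genes 2 and 2 of 47, sterol and fatty acid genes 1 and 0 of 37, integrins and cadherins 1 and 1 of 30, checkpoint and stress ligands 2 and 1 of 15 (20%), lactate and methylglyoxal genes 1 and 2 of 16 (18.8%), and genes of TGF-beta and dormancy 1 and 2 of 27. The single higher gene of that last list, Gas6, a ligand of TAM receptors, did not separate the lines as the others did. It read -0.15, 0.22 and -0.15 in DB#2 and -0.24 to 0.08 in DB#1, but -6.27 to -4.64 in DB#3, where it was read on no array, so the arrays of DB#2 and DB#1 overlapped.

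Position on the chromosomes, which the comparison did not use, went with the differences. Of 644 tested genes on chromosome 10, 135 were higher in DB#2 (21%) and 9 were lower (1.4%), and the median difference was 0.36. Chromosome 10 held 4.9% of the tested genes with a known chromosome and 21.9% of those called higher. Outside it, 3.85% of genes were called higher, with the largest shares on chromosome X (7.42%) and chromosome 4 (6.49%). The largest shares of lower genes were on chromosome 17 (78 of 661, 11.8%, median -0.27), chromosome 9 (85 of 749, 11.3%, median -0.23), chromosome 3 (54 of 643, 8.4%, median -0.16), chromosome 13 (41 of 491, 8.35%, median -0.22) and chromosome 12 (35 of 453, 7.73%, median -0.22). For DB#1 minus DB#3, the medians of these chromosomes lay between -0.02 and 0.00.

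On chromosomes 9, 10, 12 and 17 the shifts ran along the whole chromosome. In runs of 40 neighbouring genes, 16 of 16 runs of chromosome 10 had a median above 0, from 0.16 to 0.47, and 0 of 18 on chromosome 9, 0 of 11 on chromosome 12 and 0 of 16 on chromosome 17 did. Chromosomes 4, 6, 14, 19 and X also had every run above 0, with medians from 0.0045 to 0.22, and chromosome 13 had 1 of 12 above 0. Chromosome 3 was divided: its first 12 runs had medians of -0.32 to -0.13 and its last 4 had medians of 0.02 to 0.12. Of the 135 higher genes on chromosome 10, 27 differed at least 2-fold.

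**Figure D5:**
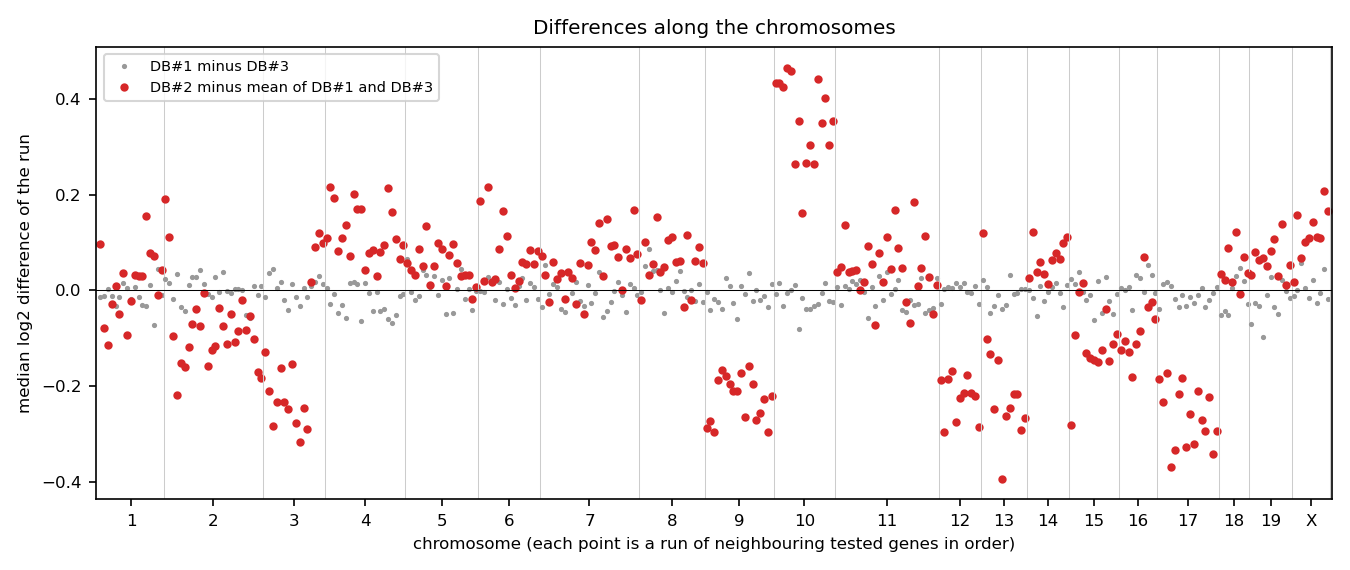
Median log2 difference (y axis) of runs of 40 neighbouring tested genes in chromosome order (x axis), for DB#2 minus the mean of DB#1 and DB#3 (red) and for DB#1 minus DB#3 (grey). The red runs of chromosome 10 lie between 0.16 and 0.47, those of chromosomes 9, 12 and 17 lie between -0.37 and -0.16, chromosome 3 changes side near its end, and the grey runs lie between -0.10 and 0.09.

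Among the 5 melanoma lines, with each gene centred on the mean of the line means, the median over chromosome 10 genes was 0.25 in DB#2, 0.13 in M, -0.16 in D (-0.10 without D replicate 3), -0.12 in DB#1 and -0.11 in DB#3. It was 0.19 to 0.32 on the 3 DB#2 arrays and -0.16 to -0.05 on the 7 arrays of DB#1 and DB#3, with no overlap. For the 144 called genes of the chromosome, D lay nearer to DB#1 and DB#3 in 136 and M in 42. The count of higher genes there was 53 without DB#2 replicate 2, 77 without replicate 3, 81 without replicate 1 and 221 with slide as a block. The part of DNA copy number in these shifts was not tested, since these arrays measure RNA. The study also ran DNA copy-number arrays, with karyotype profiles that include the DB lines, and those data were not used here. It states that copy number by chromosome arm was globally alike in parental and dormant cells. It also reports focal differences, with deletions in D and not in M of genes such as Lrp1, Ap3d1, Stx7 and Wdr18. Of these, Ap3d1 and Wdr18 are among the genes of chromosome 10 ordered here.

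Of 46 higher genes in the lists other than the interferon and oligoadenylate lists, 11 lay on chromosome 10 (23.9%, beside 21.9% of all higher genes with a known chromosome), among them Uqcr11 and Ndufa12 of the respiratory chain, Mdm2 and Sesn1 of the p53 list, Cdk2, and both higher glutathione transferases, Gstt2 and Gstt3. Uqcr11 was higher by 0.73 (SE 0.14, adjusted p = 0.00193) and Cdk2 by 0.93 (SE 0.18, adjusted p = 0.00189), and both kept their calls in every alternative. Sesn1 lost its call in 13 of 23 alternatives, Ndufa12 in 10, Mdm2 in 5, Gstt2 in 3 and Gstt3 in 1. Of the 31 higher interferon-stimulated genes 1, Stat2, lay on chromosome 10, and 7 lay on chromosome 11. Without chromosome 10, the interferon list had a median of 1.32 and the oxidative phosphorylation list one of 0.22.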

How the data were processed

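RNA of 24 samples was measured on single-colour arrays (1 sample each) laid on 3 slides. The authors deposited the scanner's background-corrected intensity per spot (Feature Extraction 10.7.3.1, array design of assembly mm9), with no scaling between arrays. The authors' series table held the same intensity values. Here, outlier spots were left out, spots of a probe averaged, and the log2 intensity taken less each array's 75th percentile (normalized log2 signal). A gene's brightest probe stood for it. Names came from RefSeq (GRCm38.p6) by accession, and its gene order, not its coordinates, was used. A gene was tested if read on every array of at least 1 DB line. All 24 arrays, 7 of them of myeloid lines that only add to the estimate of spread, entered a limma 3.58.1 (R 4.3.3) fit of line means, which left 17 residual degrees of freedom. The sources used here give no array test by the authors.

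Of the genes chosen by rule, a few are not reported here. The rule took the 12 largest rises and falls read on all 10 arrays without overlap, the 5 largest bounds per direction, up to 4 called members per list, and Fkbp10, Rcn3, Adssl1, Mgll and Ldhd. Others, such as Ifnb1, Sparcl1, Crmp1 and Plxnc1, were picked after their values were seen. The comparison, lists and alternatives were chosen with earlier results of these data known. The normexp alternative used median spot signals, since the tables used here hold no mean signal. The fit was tested on simulated data with independent noise on each array and no slide effect. That test does not cover deviations shared by arrays of a slide. No spot was saturated (0), and the number of arrays limits the precision.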

Additional observations from a re-analysis of the deposited data

Results flagged for a closer look

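Among the 4 DB#1 arrays, 1 array lay far from the other 3 in 14 of the 96 genes named by rule, judged by its gap to the nearest array over the whole range. Chance alone gives about 1 in 20 where the arrays are independent. DB#1 replicates 2 and 4 were both on slide 3. Replicate 1 was the only DB#1 array on slide 2, and replicate 3 the only one on slide 1. The part of slide in these distances was not tested. DB#1 replicate 1 was the distant array for 8 of them: Megf10 (gap over range 0.954), Adssl1 (0.904), Lrrc4b (0.888), 1810065E05Rik (0.878), Sod3 (0.876), Lamb1 (0.856), Vldlr (0.847) and Il18 (0.835). Without it, Vldlr lost its call (adjusted p = 0.0848) and the other 7 kept theirs. DB#1 replicate 3 was distant for Irgm2 (0.888), Pfkfb4 (0.855), Cdk2 (0.842) and Usp18 (0.84), and DB#1 replicate 2 for Qpct (0.909) and Ndufa4 (0.839). In Adssl1, DB#1 read 2.61, 1.59, 1.67 and 1.57, and in Megf10 it read 0.81, -0.45, -0.44 and -0.50.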

How the results depend on the processing

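The genes called for DB#2 numbered 932 with no filter on dim probes, 2526 with slide as a block, 2901 in a fit of the 10 DB arrays and 646 with a fold change of at least 2, and 843 to 1332 without 1 DB array. Those higher numbered 1968 with no scaling, 513, 1267, 1528 and 382 under those 4 settings in turn, and 424 to 732 without 1 array. Those lower numbered 1127 with the percentile over probes read on all arrays, 303 with no scaling, 419, 1259, 1373 and 264 under the 4, and 388 to 632 without 1 array. DB#1 against DB#3 gave 21 genes where all 3 lines had to be read, 72 in the fit of 10 arrays and 30 to 46 without 1 array. Higher genes on chromosome 10 numbered 210 with the percentile over probes read on all arrays, 287 with no scaling, 68 with no filter, 221 with slide as a block, 242 in the fit of 10 arrays, 85 with the replicate block, 27 with the fold minimum and 53 to 126 without 1 array. Interferon-stimulated genes higher in DB#2 numbered 27 to 31 without 1 array. Replicate numbers did not pair the arrays (correlations of same-numbered arrays -0.72 to 0.56), and the replicate block gave 1163 calls. Arrays of different DB lines on the same slide had correlations of 0.11 to 0.87 in their deviations from the line means, all positive. Those on different slides ran from -0.73 to 0.76, so the 2 ranges overlapped. The main fit held no slide term. Without D replicate 3, an alternative added after the data were seen, 2032 genes were called, 1064 higher and 968 lower, with 187 higher on chromosome 10. No named gene changed sign (0 of 96), 70 kept their call in every alternative and 26 lost it in at least 1. The cause of these changes was not tested.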
